A study of Oryza sativa with 6 samples.

Results

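Invertases split sucrose into glucose and fructose and so set how much of the transport sugar a plant cell can use or must import as hexose. Cell wall invertases are secreted and act on sucrose in the apoplast, beside the hexose transporters that take up the products, whereas cytosolic invertases of the neutral type act inside the cell. In tobacco, a cell wall invertase is known to be needed for cytokinin to hold back leaf senescence, so both kinds of enzyme are of interest in leaves kept green by cytokinin. Here 1 gene of the cytosolic enzyme (CINV1, also listed as OsCYT-INV1) and 7 genes of cell wall enzymes (CIN1 to CIN7) were followed. They were chosen as the rice genes that carry these names in the reference. On the array, 6 of the 8 had a probe set listed with that gene alone, 1 probe set for each gene, out of 17905 genes with such a probe set. CIN5 and CIN6, which are direct neighbours on their chromosome, were not analysed here. CIN2 and CIN3 are direct neighbours as well but were measured separately.

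Affymetrix rice arrays, 6 in all, were hybridised with RNA from detached leaves of the cultivar Nagina22 (N22), using the third leaf of plants 30 days old. The 3 BA-treated samples lay for 72 h of dark-induced senescence (DIS) in a solution with the cytokinin 6-benzyl adenine (BA, 2 mg/ml), and the 3 untreated samples lay equally long in the dark in the NaOH and Tween 20 solution without BA. The time of 72 h is that of the methods, since 1 label field has 2 h in its place, and the 3 replicates of a group are stated to be biological. Both groups were of the same genotype, both were cut and both were darkened, so a higher signal with BA cannot be told apart from a loss in the untreated leaves, and each sample was leaf material collected by weight. In such bulk leaf samples, fewer cells of a type and less RNA per cell cannot be told apart either.

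Each array gave a single deposited signal for a probe set, in linear units, with a lowest value of 16 on every array and array medians between 22.5 and 23.3, so a signal near 16 to 23 cannot be told from background. All 5 measured leaf markers were above the array median on all 6 arrays, although RBCS-A read only 31.4 to 43.2 on the untreated arrays and RBCS-C 28.7 on untreated replicate 2, and 4 of the 5 had a log2 change above 0 with BA, at a median of 0.79. Their summed signal was 2141 to 2556 with BA and 1325 to 2607 without it, with the lowest sum on untreated replicate 3. Of the markers of other organs, both of 2 root genes, 7 of 8 seed genes and all 3 anther genes stayed below 2 times the lowest array median on every array, and the brightest of these was the seed gene GLUA2 at a mean of 69.9. The summed signal of the root markers was 39.7 to 48.6 with BA and 42.8 to 46.3 without it, that of the seed markers 232 to 243 and 210 to 229 (no overlap), and that of the anther markers 63.4 to 66.7 and 61.6 to 69.0. BA replicates 2 and 3 were unusually close to each other: the log2 difference between them had an SD of 0.16, and that of the other pairs of arrays one of 0.416 to 0.615. The 28S rRNA control read 346 on untreated replicate 3 and 28.3 to 47.1 on the other arrays, and the poly-A control RNAs were lower by 0.92 on the log2 scale on the BA-treated arrays. The part of these differences in the results below was not tested.

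CINV1 showed the largest difference among the 6 measured invertases (gene LOC4329626). Mutants of this gene in rice are known for impaired root growth, and the enzyme cleaves sucrose in the cytosol. Its signal was 707, 453 and 522 in BA-treated replicates 1, 2 and 3 and 349, 172 and 220 in untreated replicates 1, 2 and 3. Every BA-treated array thus lay above every untreated array, and replicate 1 was the brightest in each group. The BA-treated mean was 561 ± 131 and the untreated mean 247 ± 91.7 (each SD, n = 3 arrays). On the scale log2(signal + 1) this was a change of 1.22 (standard error 0.30, 95% interval 0.49 to 1.94), or 2.32-fold with an interval from 1.40 to 3.84. A larger rise was seen for 0.711% of all rice probe sets, many of which lay near background, where changes are understated. By limma the unadjusted p was 0.0064 and the p adjusted over 57258 probe sets was 0.28, so the difference did not pass the adjusted threshold of 0.05. It passed the pair of thresholds used by the study, more than 1.5-fold at an unadjusted p under 0.05. Neutral invertases were singled out in the study from these same arrays, so the direction of CINV1 is not independent evidence. Its log2 change lay between 0.99 and 1.5 when any 1 array was left out, with adjusted p from 0.17 to 0.75.

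**Figure D1:**
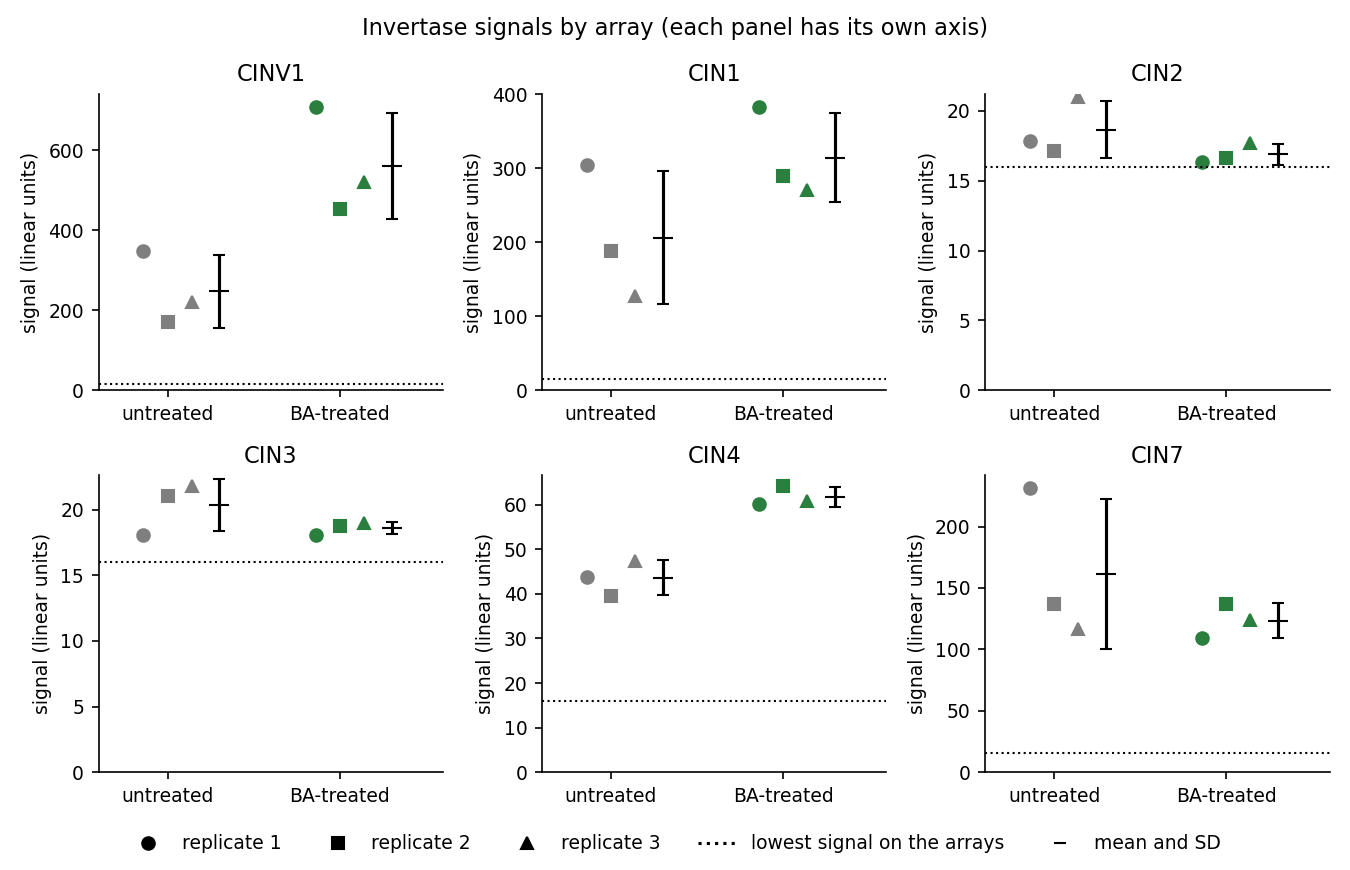
Signal of each measured invertase gene on the 6 arrays (linear deposited units, own axis per gene), with symbols for the replicate, a bar for the mean and SD (n = 3 arrays) and a dotted line at the lowest signal on the arrays (16). All 3 BA-treated arrays lie above all 3 untreated arrays for CINV1 and CIN4, the groups overlap for CIN1 and CIN7, and CIN2 and CIN3 sit close to the dotted line.

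Among the cell wall enzymes, CIN4 (gene LOC4324001) showed the most even difference. The CIN4 signal was 60.1, 64.2 and 60.9 in the BA-treated replicates and 43.8, 39.6 and 47.4 in the untreated replicates. The groups did not overlap, and their means were 61.7 ± 2.19 (SD, n = 3 arrays) and 43.6 ± 3.93 (SD, n = 3). The log2 change was 0.49 (standard error 0.09, 95% interval 0.27 to 0.72), or 1.41-fold. In the main fit CIN4 had the smallest unadjusted p of the 6 genes (0.0017 by limma, adjusted p = 0.16). This rank depended on the setting. The unadjusted limma p of CIN4 and CINV1 was 0.024 and 0.0045 with a variance trend, and 0.01 and 0.0057 without dim probe sets. With array weights it was 0.00083 and 0.0048. CIN4 stayed under the 1.5-fold threshold of the study. Leaving out any 1 array gave 0.43 to 0.56. The constant within the deposited values weighs more on a signal of this height than on that of CINV1. When 15 was subtracted from every signal before taking the logarithm, a setting chosen after the lowest value had been seen, the log2 change of CIN4 was 0.72 (unadjusted p = 0.041, adjusted p = 0.54 by limma) and passed the study's thresholds. Its probe set is of a class whose probes can match several transcripts of a gene.

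For CIN1 (gene LOC4329561), a cell wall invertase known in rice from sugar unloading in the young grain, the BA-treated replicates read 383, 290 and 271. The untreated replicates read 305, 188 and 127. Untreated replicate 1 therefore lay above BA-treated replicates 2 and 3, and the groups overlapped. The means were 314 ± 60 (SD, n = 3 arrays) and 206 ± 90.3 (SD, n = 3), with a log2 change of 0.68 (standard error 0.33, 95% interval -0.13 to 1.49, unadjusted p = 0.085 and adjusted p = 0.69 by limma). The size of this difference depended on the untreated arrays. Without untreated replicate 1 the log2 change of CIN1 was 1.00 (unadjusted p = 0.0086, adjusted p = 0.32), and without untreated replicate 3, the array with the high 28S rRNA signal, it was 0.38 (unadjusted p = 0.21, adjusted p = 0.75).

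Of the cell wall genes that did not lie higher with BA, only CIN7 (gene LOC4346527) was above the array medians. Its signal was 109, 137 and 124 in the BA-treated replicates and 231, 137 and 117 in the untreated replicates. Only untreated replicate 1 stood apart, and the remaining arrays of both groups shared the same range. The means of the 3 arrays were 123 ± 14.2 (SD) for the BA-treated and 161 ± 61.1 (SD) for the untreated leaves, a log2 change of -0.33 (standard error 0.26, 95% interval -0.97 to 0.32, adjusted p = 0.86 by limma). Without untreated replicate 1 that change was -0.04, and without untreated replicate 3 it was -0.53 (adjusted p = 0.59).

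CIN2 and CIN3 were at the lower end of the measurable range. CIN2, also named GIF1, is known in rice for its part in grain filling. The CIN2 signal (gene LOC4335790) was 16.3, 16.6 and 17.7 with BA and 17.8, 17.1 and 21 without it. That of CIN3 (gene LOC4335789) was 18.1, 18.7 and 18.9 with BA and 18.1, 21 and 21.8 without it. Both genes lay below the array median on all 6 arrays, and a difference was not detectable at these signals (adjusted p = 0.85 and 0.86 by limma). The fitted log2 values of -0.13 for CIN2 and -0.12 for CIN3 became -0.88 and -0.49 when 15 was subtracted from the signals, so their size is not read.

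Over the whole set, 3 of the 6 measured genes had a log2 change above 0 (CINV1, CIN1 and CIN4) and 3 below 0 (CIN7, and CIN2 and CIN3 near background), with a median of 0.19 against -0.0035 over all rice probe sets. By limma 0 of the 6 had an adjusted p under 0.05, against 0.0926% of all probe sets that were higher and 0.0664% that were lower by that rule. At an unadjusted p under 0.05, CINV1 and CIN4 were higher (2 genes) and 0 were lower, against a background of 4.24% higher and 4.25% lower over all probe sets and of 7.03% and 7.06% over those above the median signal. At the study's thresholds there was 1 higher, CINV1, and 0 lower, where 1.73% of all probe sets were higher and 2.16% lower, or 3.42% and 4.27% of those above the median signal. The groups did not overlap for CINV1 and CIN4, both higher with BA, whereas 6.71% of all probe sets lay wholly above and 7.3% wholly below the untreated arrays, or 8.13% and 8.62% of those above the median signal. With 6 genes, these counts describe the family and test nothing about it.

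**Figure D2:**
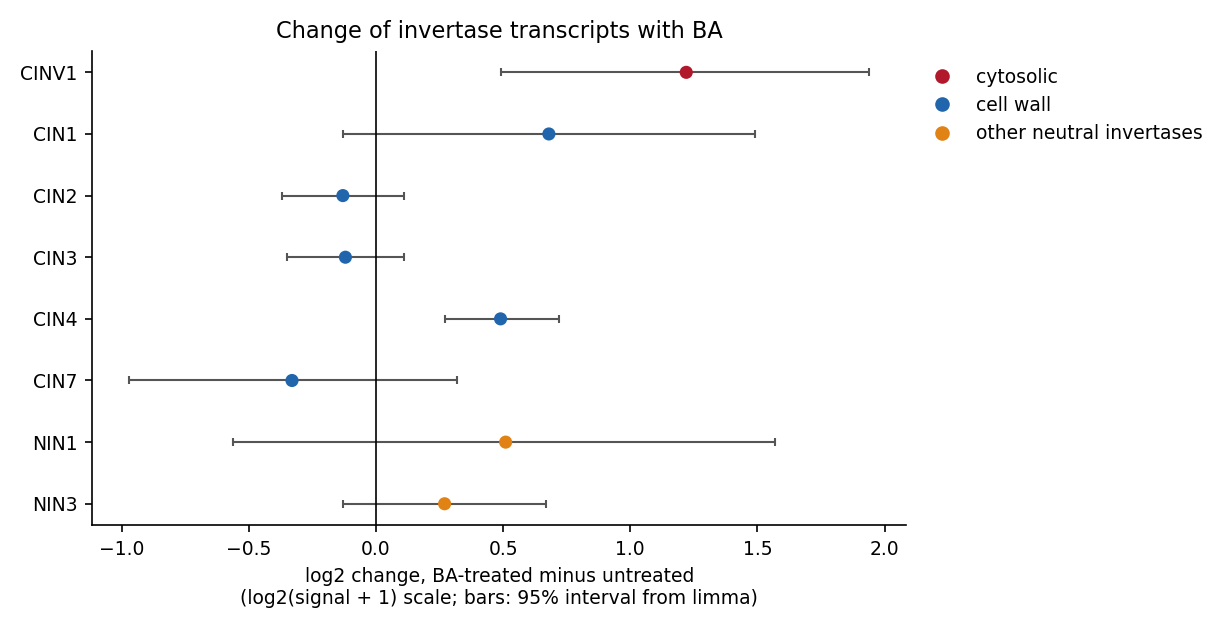
Log2 change of each invertase transcript, BA-treated minus untreated, on the log2(signal + 1) scale, with 95% intervals from limma (n = 3 arrays per group) and colours for cytosolic, cell wall and other neutral invertases. The intervals of CINV1 (0.49 to 1.94) and CIN4 (0.27 to 0.72) lie above 0, before any adjustment for the number of probe sets, and those of the other genes include 0.

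The cytosolic and the cell wall enzymes were then set against each other within each array, by subtracting the mean log2 signal of the 5 measured cell wall genes from that of CINV1. Signals of different probe sets are not comparable as levels, so only the change of this difference between the groups is read. The difference was 3.53, 2.88 and 3.12 in the BA-treated replicates and 2.43, 1.7 and 2.1 in the untreated replicates, without overlap. It was larger with BA by 1.10 on the log2 scale, or 2.14-fold (exact permutation test, two-sided, p = 0.1, the smallest p that 3 arrays against 3 allow in this test), and by 0.91 to 1.28 when any 1 array was left out. The mean of the 5 genes includes CIN2 and CIN3, which lay near background, where changes are understated. CINV1 is the only cytosolic gene here and neutral invertases were singled out from these arrays, so the direction is not independent evidence. With only the 3 cell wall genes above the array medians (CIN1, CIN4 and CIN7), a choice made after their signals were seen, the change was 0.93 (p = 0.1 in the same exact test).

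Against single cell wall genes, the change of CINV1 exceeded that of CIN7 by 1.55 and lay above it without overlap, at 2.69, 1.72 and 2.07 in the BA-treated and 0.59, 0.33 and 0.91 in the untreated replicates. For CIN1 the excess was 0.54 and for CIN4 it was 0.72, and in both comparisons the groups overlapped. Exact permutation tests (two-sided) gave p = 0.1 for CIN7 and p = 0.2 for CIN1 and CIN4, which became 0.167 and 0.2 when adjusted over 5 pairs. The other 2 pairs, with CIN2 and CIN3, are not read, since those genes could not be told from background. The smallest p this permutation test can give with 3 arrays a group is 0.1, so a p above 0.05 says nothing here on whether CINV1 and a cell wall gene differed.

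**Figure D3:**
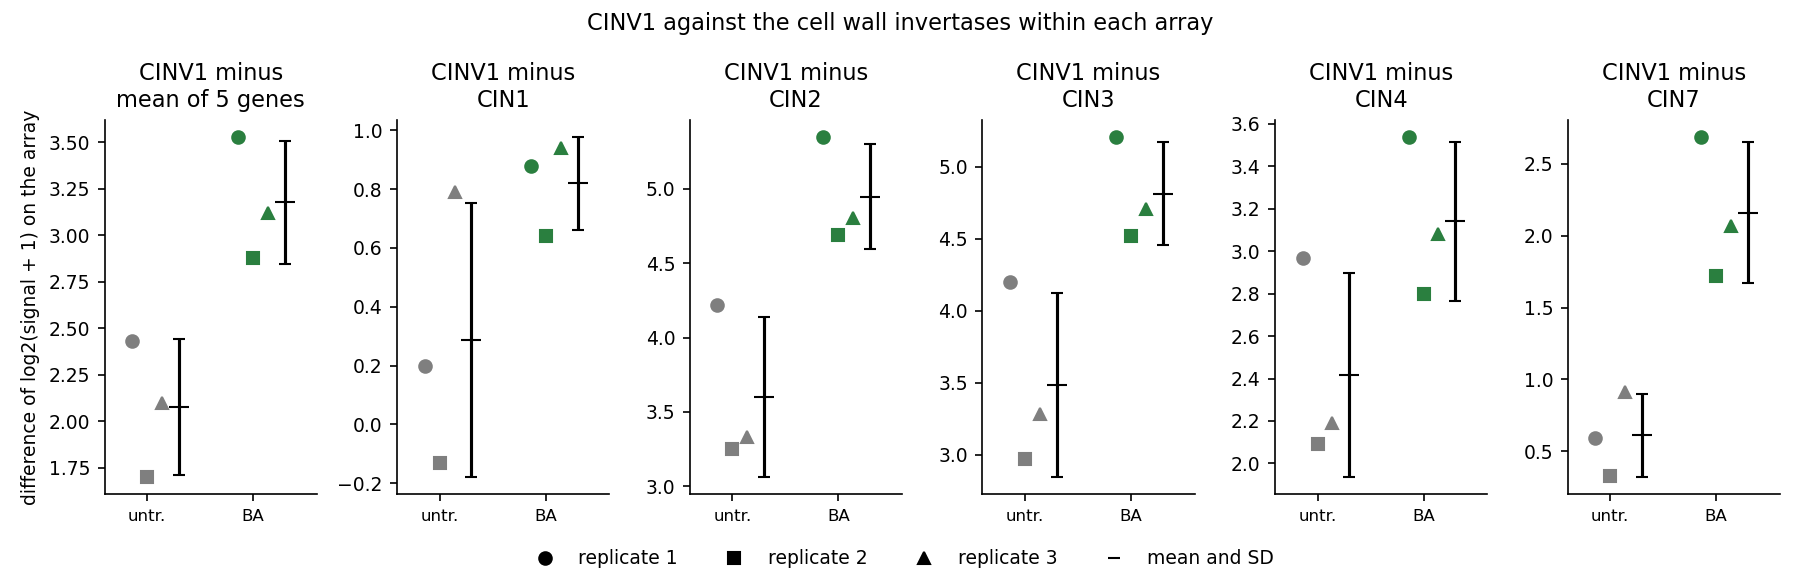
Log2(signal + 1) of CINV1 minus that of the cell wall genes on each array, for the mean of 5 genes and for each gene, with symbols for the replicate and a bar for the mean and SD (n = 3 arrays). Only the step from untreated (untr.) to BA-treated (BA) arrays can be read, not the height, and it is 1.10 for the mean of the 5 genes, with no overlap, and 0.54 for CIN1, with overlap. The panels of CIN2 and CIN3 are not read, and the mean includes these genes although they lie near background.

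The sizes depended on which array was left out. In the plot of the arrays left out in turn, the log2 change of CINV1 lay between 0.99 and 1.5, that of CIN1 between 0.38 and 1.00, that of CIN4 between 0.43 and 0.56 and that of CIN7 between -0.53 and -0.04. Across the 6 arrays the log2 signals of CINV1 correlated with those of CIN1 at r = 0.84 and of CIN4 at r = 0.85, whereas CIN7 had r = -0.18 with CINV1, 0.20 with CIN1 and -0.45 with CIN4. These correlations are a description over 6 arrays that share the treatment difference, and no test was made of them.

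**Figure D4:**
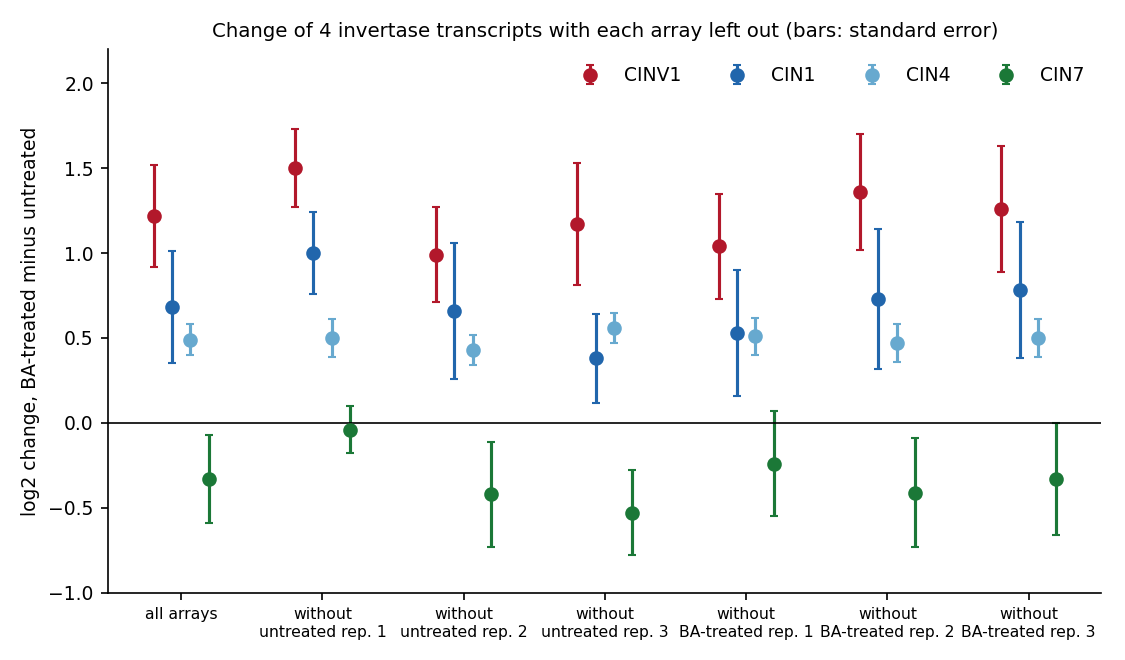
Log2 change of CINV1, CIN1, CIN4 and CIN7, BA-treated minus untreated, with all 6 arrays and with each array left out, and bars for the standard error from limma. CIN1 ranges from 0.38 to 1.00 and CIN7 from -0.53 to -0.04, depending on the untreated array left out, while CIN4 stays between 0.43 and 0.56.

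NIN1 and NIN3 encode other invertases of the neutral type. They were added here because they belong to the same enzyme class as CINV1, and their changes were smaller than that of CINV1. The study listed more than 1 neutral invertase gene as higher with BA on these arrays. A rise particular to CINV1 within its class is thus not shown. NIN1 read 337, 153 and 131 in the BA-treated and 206, 107 and 106 in the untreated replicates, with overlap and with replicate 1 the brightest in both groups. Its log2 change was 0.51 (95% interval -0.56 to 1.57, adjusted p = 0.87 by limma), and 0.09 without BA replicate 1. NIN3 read 391, 327 and 328 with BA and 357, 271 and 245 without it, a log2 change of 0.27 (95% interval -0.13 to 0.67, adjusted p = 0.79). The change of CINV1 exceeded that of NIN1 by 0.71 and that of NIN3 by 0.94 within the arrays, in both cases with every BA-treated array above every untreated array (p = 0.1 for each by a two-sided exact permutation test). For NIN1 the margin was narrow, with a lowest BA-treated value of 1.07 and a highest untreated value of 1.05, and p was 0.2 after quantile normalization and with 15 subtracted.

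The genes around the invertases in sucrose and hexose use were more often lower than higher with BA. Of 29 such genes, 11 had a log2 change above 0 and 18 below, with a median of -0.22 against -0.0035 over all probe sets. Over all 57258 rice probe sets, 28050 were above 0 and 29208 below. The count of 29 includes genes near background, such as SUS3 and SUT5, whose sign cannot be read. By limma 0 were called higher and 0 lower at an adjusted p under 0.05, while an unadjusted p under 0.05 was reached by 8 genes with lower and 0 with higher signals (backgrounds as above). At the study's thresholds 0 were higher and 4 lower, namely SUS5, SUS6, SPS6 and the hexokinase listed as HXK2 and HXK6, against 1.73% higher and 2.16% lower over all probe sets. Among probe sets above the median signal, which include 25 of the 29 genes, these shares were 3.42% and 4.27%. With an offset of 16 in place of 1 a single gene passed, and without BA replicate 1 there were 1 higher and 3 lower. The list members were picked by name with earlier results of these arrays known, and the study singled out a hexokinase on these arrays. The study also reported lower expression of a hexokinase gene with BA by qPCR.

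Sucrose synthases, which cleave sucrose with UDP instead of water, lay in both directions. SUS5 read 42.2, 36.9 and 40.8 with BA and 59.6, 66.8 and 78.1 without it, a log2 change of -0.75 with no overlap (adjusted p = 0.13 by limma). SUS6 read 24.7, 20 and 23.7 with BA, near background, and 33.6, 36.8 and 77.4 without it, so the size of its change is uncertain. The log2 change was -0.98 (adjusted p = 0.46), -0.61 without untreated replicate 3, -1.97 with 15 subtracted and -0.49 as the mean of both its probe sets, the second of which was below the array median on every array. SUS2 and SUS1 lay at 0.46 and 0.32 (adjusted p = 0.62 and 0.74), with overlapping groups. Of the 8 genes of this kind, NIN1 and NIN3 included, 4 were above 0 and 4 below.

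Of 7 genes that make sucrose, 5 had a log2 change below 0, and the median was -0.33. Over all 57258 rice probe sets, 29208 lay below 0. Among the 5 lower genes, SPS2F was above the array median on only 3 arrays, so its sign is uncertain. The median is the value of SPS2, whose BA-treated signals lay close to the array medians, so its size is uncertain. The sucrose phosphate synthase SPS6 read 91.2, 152 and 138 with BA and 169, 185 and 229 without it (log2 change -0.63, adjusted p = 0.51 by limma), and SPS2 had a log2 change of -0.33 (adjusted p = 0.42). SPS1 and the sucrose phosphatase SPP1 had 0.23 and 0.33 with overlapping groups. Hexokinases phosphorylate the glucose that invertases release. Of 8 genes for hexose phosphorylation, 3 were above 0 and 5 below, at a median of -0.07. The hexokinase listed as HXK2 and HXK6 read 66.2, 93.4 and 94.4 with BA and 112, 152 and 131 without it (log2 change -0.64, adjusted p = 0.37). The one listed as HXK4 and HXK8 had -0.75 (adjusted p = 0.66), while HXK5 and the one listed as HXK6 and HXK7 had 0.37 and 0.54 (adjusted p = 0.63 and 0.73) with no overlap between the groups. These values were 0.21 for HXK5 without untreated replicate 3 and 0.21 for HXK6 and HXK7 without BA replicate 1. That of HXK4 and HXK8 was -0.46 without untreated replicate 3. The probe sets of HXK4 and HXK8 and of HXK2 and HXK6 are of a class whose probes can match transcripts of several genes. The sucrose transporter SUT1 had a log2 change of -0.49 with no overlap (adjusted p = 0.36), SUT4 had -0.50 (-0.20 without untreated replicate 2) and SUT5, close to background, 0.02. For the hexose transporters, the log2 change was 0.31 for MST3 (adjusted p = 0.73) and -0.33 for MST5 (adjusted p = 0.55, no overlap).

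**Figure D5:**
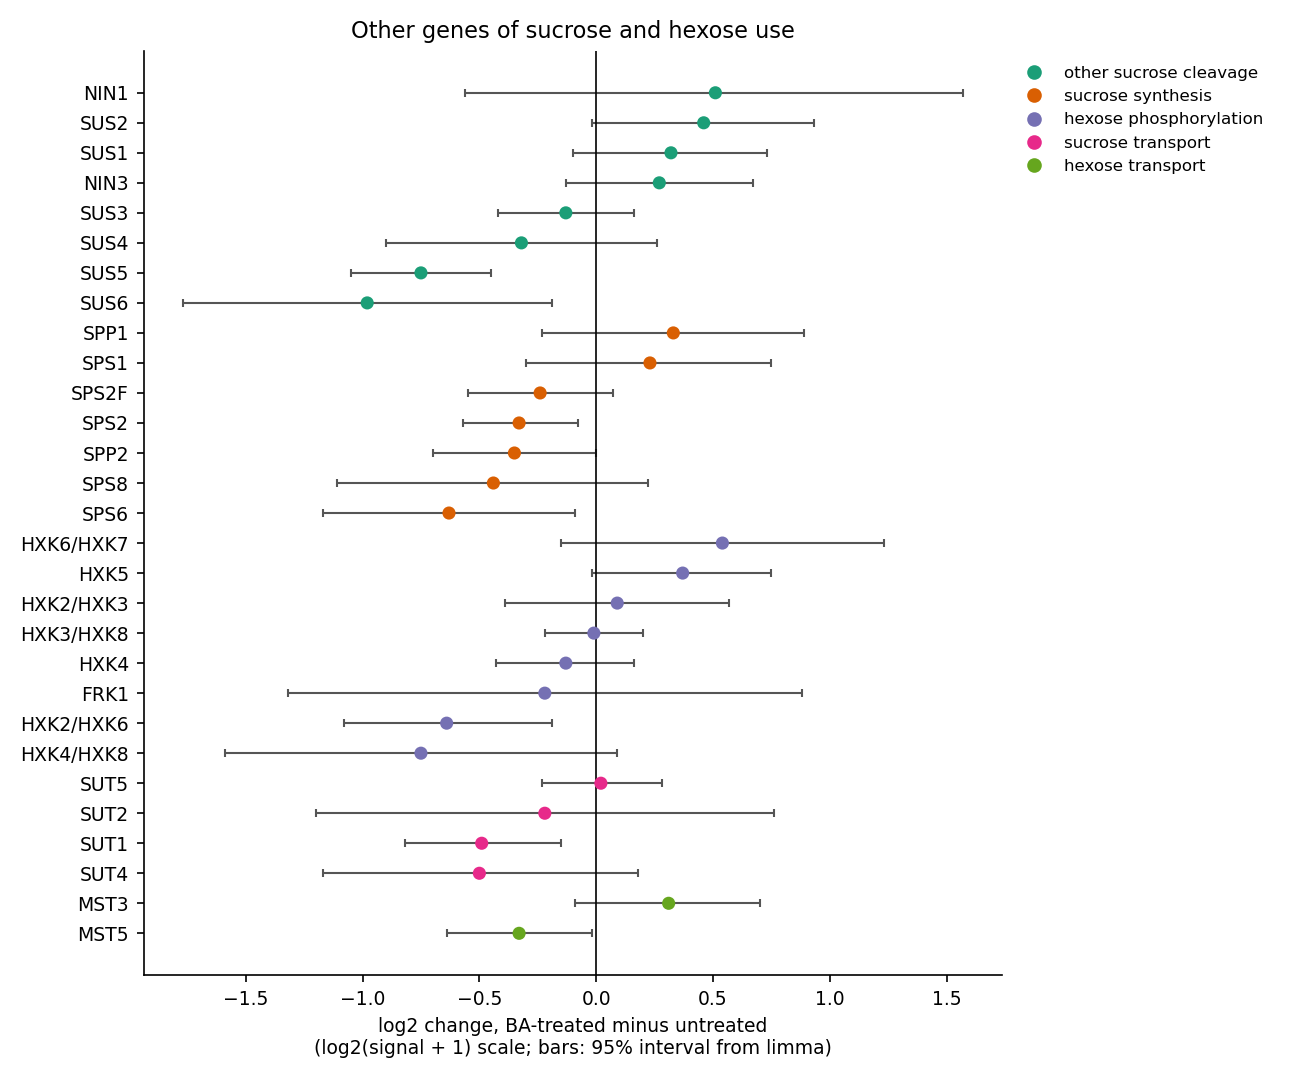
Log2 change, BA-treated minus untreated, of 29 other genes of sucrose and hexose use on the log2(signal + 1) scale, with 95% intervals from limma (n = 3 arrays per group) and colours for the kind of gene. In all, 18 of the 29 lie below 0, and the 8 with an unadjusted p under 0.05 are all lower with BA. Over all 57258 rice probe sets, 29208 lie below 0, and 4.25% are lower and 4.24% higher at that p. Among probe sets above the median signal, 7.06% are lower and 7.03% higher at that p.

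The named genes whose signals followed those of CINV1 most closely over the 6 arrays, out of 2452, were an expansin gene (listed as EXP26 and EXPA26, r = 0.987), RBCS-A, a small subunit of Rubisco (r = 0.983), and EIL1, a transcription factor of ethylene signalling (r = 0.978). Of these, EIL1 read 511, 403 and 439 with BA and 277, 124 and 127 without it, a log2 change of 1.45 (adjusted p = 0.24 by limma), and RBCS-A one of 0.79 (adjusted p = 0.15). The signals of CIN1 were followed most closely by those of the gene listed as QM1 and SG12 (r = 0.994), the glutamine synthetase gene GLN1-3 (r = 0.983) and NIN3 (r = 0.982). With 6 arrays and many genes such values are high by selection, and they carry no test. Of the leaf markers, petC of the cytochrome b6f complex showed 1.07 and the Rubisco activase gene RCA 0.79 as log2 changes (adjusted p = 0.15 and 0.31), while CAB2R showed -0.20, and the part of these leaf transcripts in the CINV1 difference was not tested.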

How the data were processed

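RNA of 3 BA-treated and 3 untreated leaf samples was hybridised to Affymetrix rice arrays, and the paper states that the replicates are biological. The authors deposited 1 signal intensity per probe set and array, summarised by PLIER with variance stabilization, and the lowest value on every array is 16. RMA is also named in the submitters' processing notes. The sources used here give neither versions nor how arrays were scaled. Intensities were used as log2(signal + 1), without further normalization, over 57258 rice probe sets (123 control probe sets were left out), and the groups were tested by limma 3.58.1 under R 4.3.3 (functions lmFit and eBayes, two-sided, Benjamini-Hochberg over all probe sets, threshold 0.05). Every adjusted p is from that fit, unless another setting or an adjustment over pairs is named beside it. Fold changes on this scale understate changes near the constant.

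Probe sets were named through the platform annotation (22436 with 1 gene, 95 with several, 34850 with none listed) joined by gene identifier to synonyms of the assembly ASM3414082v1. A gene was read from its brightest single-gene probe set. Within-array differences were compared by exact permutation tests in scipy 1.17.1, and the p of the single cell wall pairs were adjusted over those pairs by Benjamini-Hochberg.

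The genes named are all members, up to 2 per direction with the smallest p from each list of sucrose use genes, NIN1 and NIN3, and the 3 named genes most alike to CINV1 and CIN1. Members and lists were chosen with earlier results of these data known; no invertase inhibitor gene was matched, and genes sharing only an abbreviation with a list member, such as signal peptide peptidases, were removed. The test was run on simulated arrays of this comparison (57258 probe sets): of 100 sets shifted by 1 log2 unit 53 were called, of 100 shifted by 2 units 80, and 4 calls were false. The simulated noise was normal and independent between arrays, unlike the close BA replicates 2 and 3. The shares called are therefore not the power for a given gene such as CINV1. Precision is limited by the number of arrays.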

Additional observations from a re-analysis of the deposited data

How the results depend on the processing

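Over 17 alternatives (offset, constant subtracted, scaling between arrays, spread estimate, array weights, dim probe sets left out, mean of a gene's probe sets, replicate block, BA replicates 2 and 3 averaged, each array left out), no invertase and none of the 29 sucrose use genes reached an adjusted p under 0.05, and every member kept its direction; CIN2 and CIN3 could not be fitted in the filter on dim probe sets. CINV1 ranged from 0.99 to 1.5 (adjusted p 0.089 to 0.75) and CIN4 from 0.38 to 0.72 (0.08 to 0.60). The members past the study's thresholds were 2 in place of 1 with the constant subtracted (CINV1 and CIN4) and 2 with the replicate block (CINV1 and CIN1), and 1 to 2 with an array left out (2 without untreated replicate 1). Offset 16 left 1 of the 4 sucrose use genes. Adjusted calls over all probe sets were 91, and 280 with array weights, 48 with the constant subtracted, 0 with BA replicates 2 and 3 averaged (1755 at the study's thresholds), 0 with the replicate block (2731 at those thresholds) and 0 to 142 with an array left out (0 without BA replicate 2 or 3, with 1788 and 1781 at those thresholds, and 142 without BA replicate 1). With the constant subtracted, 4978 in place of 2227 passed the study's thresholds. SUT5 turned to -0.02 with BA replicates 2 and 3 averaged and ranged from -0.06 to 0.11 with an array left out, and SPS1 from -0.02 to 0.37. The cause of these differences was not tested. Same-numbered arrays of the groups deviated together for replicates 1 and 3 but not for replicate 2 (r = 0.42, -0.01 and 0.42). Differently numbered arrays had r from -0.4 to 0.27. Deviations were taken from the mean of each group, and BA replicates 2 and 3 were close to each other. These r values therefore depend on each other and are not a count of matched pairs. The methods name no pairing, so the main fit used none, and whether the samples were paired is not known. With the replicate block, CINV1 kept 1.22 at a standard error of 0.11 (adjusted p = 0.089), and the cytosolic minus cell wall change was 1.10 (exact permutation test over sign changes, p = 0.25, the smallest possible). That change ranged from 0.91 to 1.34 over its 15 alternatives. Signals near 16 limit CIN2 and CIN3.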
